A study of Mus musculus with 8 samples.

Results

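NF-YA is the subunit of the trimeric transcription factor NF-Y that reads the DNA motif CCAAT, and NF-Y is best known for binding this motif a short way upstream of gene starts. The regions described here are NF-YA peaks whose assigned gene is not protein-coding, that is, peaks whose gene carries an Ensembl biotype such as lincRNA, antisense, pseudogene, miRNA, snRNA, snoRNA or rRNA. They were chosen by that biotype alone and number 879 of 7196 peaks in the merged peak table, or 18.6% of the 4716 peaks that have a gene. The other assigned peaks belong to protein-coding genes (3837), and 2480 peaks have no gene.

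The study asked how NF-YA occupies the genome of mouse muscle stem cells (MuSCs, the Pax7-positive cells that regenerate skeletal muscle) with and without TAF4A, a subunit of the general transcription factor TFIID. CUT&RUN was used, in which an antibody to NF-YA tethers a nuclease that cuts out the DNA it sits on. The control libraries (called WT in their titles) came from C57BL/6 mice with the floxed Taf4a allele that either lacked the Pax7 CreERT2 driver or carried it. The Taf4asKO libraries came from Pax7 CreERT2 mice with the same floxed allele after tamoxifen, which removes Taf4a exons in Pax7-expressing cells. The cells of both genotypes had been isolated from adult mice of either sex by flow cytometry, expanded in culture and labelled as activated and proliferating, so they are not quiescent cells in muscle. Each genotype has 2 NF-YA libraries (replicates 1 and 2), and 4 libraries made with control IgG are not in the table and were not analysed here. The sources do not say whether the replicates came from separate animals, so the p-values below measure the spread between libraries, which may be technical. The table holds no transcript levels, so neither the loss of Taf4a nor the labelled cell type could be checked in it. In such bulk cultures fewer cells with bound NF-YA and less NF-YA per cell cannot be told apart.

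Values are normalised reads per peak, rounded to whole numbers by the authors, and they sum to between 316959 and 367346 per library over all peaks. In control replicate 1 a single read was worth 1.04 units and in control replicate 2 it was worth 3.26 units, which gives 351696 and 111265 reads in peaks. Control replicate 2 therefore had fewer reads in peaks than replicate 1, with a median of 4.91 reads per peak against 16.3. Of its 7196 values 587 are 0, against 145 in replicate 1. These are reads in peaks and do not give the sequencing depth of a library. For the Taf4asKO libraries reads in peaks could not be recovered from the values. A peak was tested between genotypes when its mean over the 4 libraries was at least 10 units, which 449 of the 879 noncoding-gene peaks (51.1%) reached, against 80.9% of peaks of protein-coding genes and 48.1% of peaks without a gene.

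Noncoding genes make several kinds of RNA. Long noncoding RNAs (lncRNAs) are transcripts of RNA polymerase II without a translated frame, and include RNAs that act on chromatin in cis, such as Kcnq1ot1 at an imprinted domain. Small and structural RNAs include microRNAs (miRNAs), which repress messenger RNAs through a short seed, snRNAs of the spliceosome, snoRNAs that guide modification of ribosomal RNA, ribosomal RNA itself, and RNAs such as Terc, the template of telomerase. Pseudogenes are copies of other genes that have lost coding function, and TEC marks gene models that still await experimental testing.

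Sequences of the central 120 bases of some peaks are given first, since CCAAT is what NF-Y reads. They are printed on the top strand of mm10 (read from the RefSeq copy of GRCm38.p6), in lower case, with CCAAT or its reverse complement ATTGG in capitals. The first set holds strong or functionally known members, from a gene start, from a site upstream of a hairpin and from a distant site.
4833417C18Rik, chr11:95858811-95858930: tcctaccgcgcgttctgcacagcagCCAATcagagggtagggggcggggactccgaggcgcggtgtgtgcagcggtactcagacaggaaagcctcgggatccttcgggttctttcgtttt
1700096K18Rik, chr5:25529618-25529737: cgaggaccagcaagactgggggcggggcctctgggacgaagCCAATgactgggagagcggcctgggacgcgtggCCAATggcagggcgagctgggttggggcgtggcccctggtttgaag
Kcnq1ot1, chr7:143296572-143296691: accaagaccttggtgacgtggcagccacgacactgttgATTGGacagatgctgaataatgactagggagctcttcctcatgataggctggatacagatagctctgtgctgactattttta
Terc, chr3:96414836-96414955: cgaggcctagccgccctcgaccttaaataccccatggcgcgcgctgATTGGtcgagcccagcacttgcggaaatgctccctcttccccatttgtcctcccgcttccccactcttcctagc
Snord104, chr11:106500791-106500910: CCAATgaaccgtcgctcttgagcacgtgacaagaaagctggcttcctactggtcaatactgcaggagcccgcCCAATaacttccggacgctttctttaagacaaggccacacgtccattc
Mir206, chr1:20678105-20678224: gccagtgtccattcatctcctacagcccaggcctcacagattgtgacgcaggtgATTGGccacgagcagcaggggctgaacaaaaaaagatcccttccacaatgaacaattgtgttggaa
Malat1, chr19:5812216-5812335: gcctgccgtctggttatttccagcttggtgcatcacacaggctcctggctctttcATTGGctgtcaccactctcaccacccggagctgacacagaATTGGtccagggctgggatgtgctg

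The second set holds the 3 peaks that passed the test between genotypes and, last, the centre of the highest noncoding-gene peak, which lies in a block of ribosomal RNA sequence and has no CCAAT. The AC125101.1 window has none in these 120 bases either, although 1 lies within the 200 bases used for counting below.
AC125101.1, chr19:44248432-44248551: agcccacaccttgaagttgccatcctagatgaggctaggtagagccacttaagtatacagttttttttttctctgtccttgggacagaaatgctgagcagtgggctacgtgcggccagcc
Gm35733, chr13:47355347-47355466: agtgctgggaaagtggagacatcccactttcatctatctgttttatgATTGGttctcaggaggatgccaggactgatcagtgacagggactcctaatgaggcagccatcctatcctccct
1700067G17Rik, chr1:89019850-89019969: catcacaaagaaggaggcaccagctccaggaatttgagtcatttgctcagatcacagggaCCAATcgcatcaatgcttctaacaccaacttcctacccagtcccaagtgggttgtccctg
CT010467.1, chr17:39843656-39843775: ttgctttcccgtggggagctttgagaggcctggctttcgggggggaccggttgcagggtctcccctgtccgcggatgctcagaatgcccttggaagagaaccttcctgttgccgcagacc

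The 879 peaks belong to 775 genes, of which 686 have a single peak, 80 have 2 and 9 have 3 or more. Peaks of lncRNA genes are the largest family (399 peaks), followed by pseudogenes (209), small or structural RNA genes (165) and TEC models (106). Among lncRNA biotypes 234 peaks are lincRNA, 113 antisense, 36 processed_transcript, 14 sense_intronic and 1 each sense_overlapping and bidirectional_promoter_lncRNA. Processed pseudogenes hold 182 of the pseudogene peaks, and among small RNAs there are 70 miRNA, 29 snRNA, 25 snoRNA, 20 rRNA and 20 misc_RNA peaks and 1 ribozyme peak. Most of the peaks are weak. Their median control level was 10 units, against 33.5 for peaks of protein-coding genes and 8.5 for peaks without a gene, and 41 of them (4.66%) had a mean of at least 100 units against 22.6% of protein-coding-gene peaks.

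**Figure D1:**
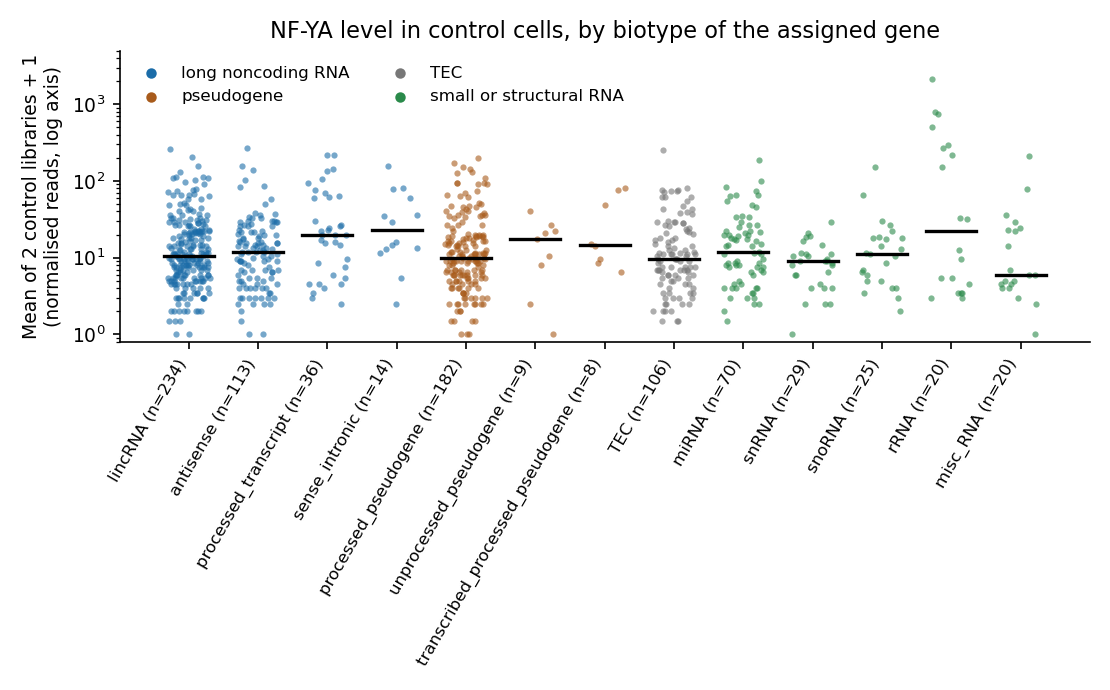
Mean NF-YA level of the 2 control libraries plus 1 (normalised reads, log axis) for each peak, by biotype of the assigned gene, for the 13 biotypes with at least 8 peaks. Points are peaks and black lines are medians. Medians lie between 5 and 21.8 units in every biotype shown, and the highest points are rRNA peaks, up to 2108.5 units.

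The peaks lie where no protein-coding gene starts nearby, and this follows from how genes were assigned. None of the 879 centres is within 10000 bases of the annotated start of a protein-coding gene (the nearest is 10131 bases away, the median 38565), so the table gives a noncoding gene a peak only where no protein-coding gene start is in that window. In the other direction, 385 peaks of protein-coding genes (10% of them) have a nearer noncoding gene start, 217 of these within 1000 bases, and are not counted here. Peaks at starts shared by a coding and a noncoding gene are therefore missing from the members by construction. The exception is alternative promoters: 53 members (6.03%) lie within 1000 bases of the start of another transcript of a coding gene. Among them are the highest miRNA peak, given to Mir7030 but 49 bases from a transcript start of Bicdl1, and a peak given to the pseudogene Gm18001 that is 104 bases from a transcript start of Tecr. The Mir1938 peak is likewise 142 bases from an Ifrd1 transcript start.

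Of the 879 peaks, 190 (21.6%, 95% Wilson interval 19 to 24.5) were within 1000 bases of the assigned start, against 67.4% of the protein-coding-gene peaks (65.9 to 68.9). The median distance was 3927 bases against 209. Among the families the share at the start was highest for lncRNA genes (117 of 399, 29.3%, interval 25.1 to 34). Among lncRNA biotypes with more than 1 peak it was highest for processed_transcript genes (20 of 36, 55.6%, interval 39.6 to 70.5). The share was 18.8% (13.6 to 25.4) for small or structural RNA genes, 14.2% (8.77 to 22) for TEC models and 12.9% (9.03 to 18.1) for pseudogenes. These intervals cover counting error over peaks only. Peaks at a start lay more often upstream of it, as 126 of the 190 did, whereas 339 of the 689 farther peaks were upstream. By gene models, 53 peaks were in an exon of their own gene, 110 elsewhere in its body and 716 outside it. Of all 879, 346 (39.4%) were inside a protein-coding gene, 36 of them in one of its exons, and 364 (41.4%) were in no annotated gene.

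**Figure D2:**
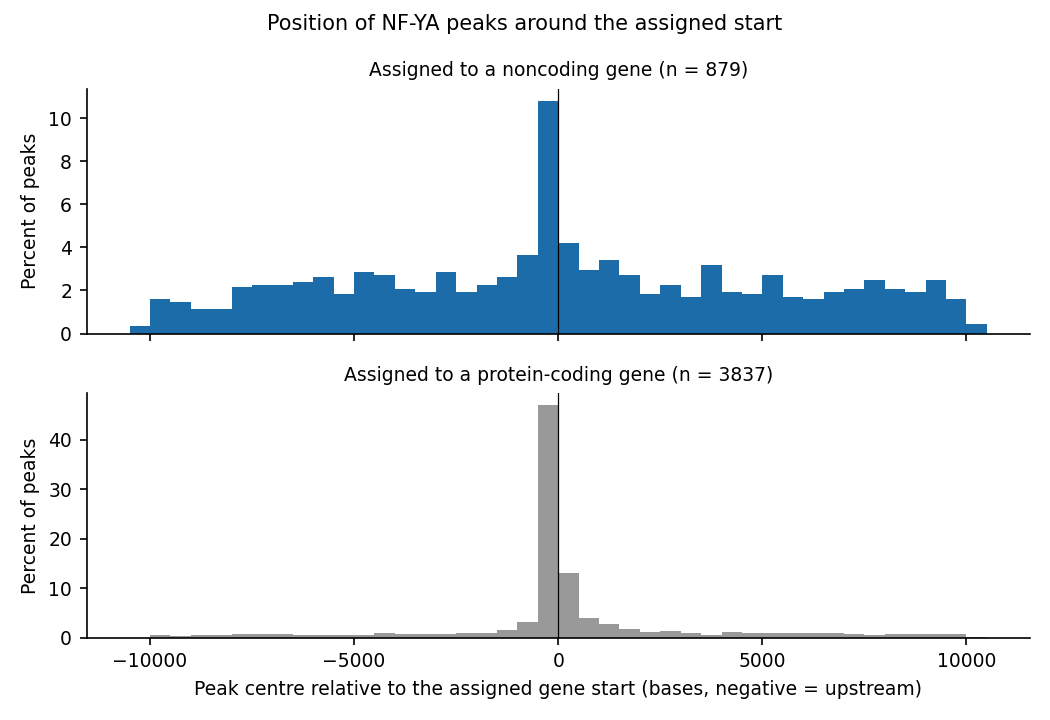
Share of peaks (percent, bins of 500 bases) by the position of the peak centre relative to the assigned start (bases, negative values upstream), for 879 noncoding-gene peaks (top) and 3837 protein-coding-gene peaks (bottom). Each panel has its own vertical scale. Noncoding-gene peaks have a small excess just upstream of the start above a nearly even spread over the window, whereas 67.4% of protein-coding-gene peaks are within 1000 bases.

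CCAAT was counted on either strand (as CCAAT or its reverse complement ATTGG, which can share bases where they meet, each match counting) in a 200-base window at every peak's centre, and in flanking windows of equal length placed 1000 bases to either side. Of the 879 peaks 627 (71.3%, 68.3 to 74.2) had it, against 422 of 1758 flanking windows (24%, 22.1 to 26.1). In comparison, 83% of protein-coding-gene peaks (81.7 to 84.1), 74% of peaks without a gene (72.3 to 75.7) and 78.5% of all peaks had the motif. In peaks that had it, the motif nearest to the centre was a median of 22 bases away. Near the start the noncoding-gene share was 73.2% (66.4 to 79), below the 88.2% (86.9 to 89.4) of protein-coding-gene peaks at their starts. The 190 noncoding-gene peaks near a start include 5 of a block of ribosomal RNA sequence in which no peak has the motif. The sets were also not matched for peak level. Beyond 1000 bases the noncoding-gene share was 70.8% (67.3 to 74.1), and protein-coding-gene peaks beyond 1000 bases had 72.2% (69.6 to 74.6), with overlapping intervals.

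Stronger noncoding-gene peaks carried the motif more often. The share was 63.5% (58.8 to 67.9) in the 430 peaks below a mean of 10 units, 77.3% (72.5 to 81.4) in the 339 from 10 to 50 and 83.6% (75.6 to 89.4) in the 110 at 50 or more. Protein-coding-gene peaks of 50 or more had 94.2% (92.9 to 95.2). The 110 include 9 peaks of a block of ribosomal RNA sequence, none with the motif, and without them the share was 92 of 101 (91.1%, 83.9 to 95.2), which overlaps the protein-coding interval. Between the larger biotypes the shares were alike, with 74.3% in antisense, 72.2% in lincRNA, 72% in processed_pseudogene, 75.7% in miRNA and 67.9% in TEC peaks, all with overlapping intervals. Peaks of rRNA genes stood below these at 7 of 20 (35%, 18.1 to 56.7), with an interval that overlaps that of their own flanks. All 7 of the rRNA peaks in the repeat block described below lack the motif, and the other 13 had it in 7 (53.8%, 29.1 to 76.8), an interval that overlaps those of the larger biotypes. Window composition also differed, with a median of 51% G+C and 1.5 CpG per 100 bases in noncoding-gene peaks against 58% and 5 in protein-coding-gene peaks.

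**Figure D3:**
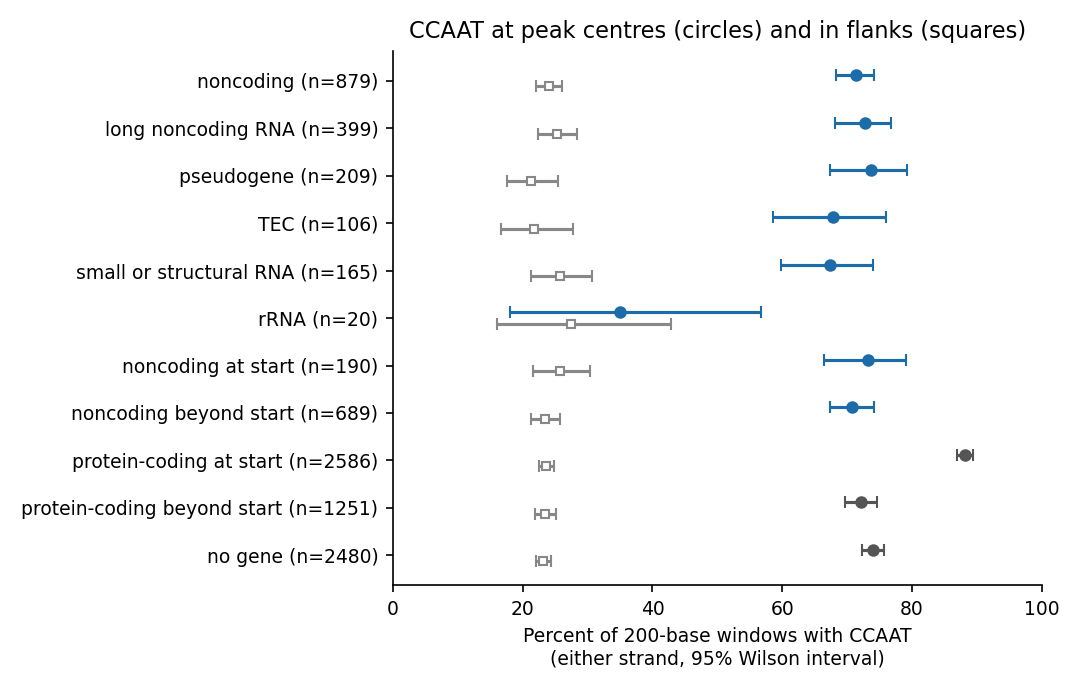
Percent of 200-base windows with CCAAT on either strand at peak centres (circles) and in flanking windows (squares), with 95% Wilson intervals. Rows are sets of peaks, with noncoding-gene sets in blue, other peaks in grey, and "at start" meaning within 1000 bases of the assigned start. All noncoding-gene families lie between 67.3% and 73.7% with flanks between 21.3% and 25.8%, and rRNA lies lower at 35%.

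Some of the highest lncRNA peaks lay at or near the gene start. The peak of 4833417C18Rik (chr11:95858597-95859143) was centred 5 bases from the start and had 210 and 222 units in the control and 190 and 207 in the Taf4asKO libraries. The 1700096K18Rik peak (chr5:25529472-25529883), 335 bases upstream of that lincRNA gene, had 280 and 241 units in the control and 223 and 270 in Taf4asKO, and its window holds the pair of CCAAT boxes shown above. For this gene and for 1810026B05Rik (383 bases upstream, 239 and 202 units in control, 206 and 240 in Taf4asKO) the genotypes overlapped. The 5430402P08Rik peak, 1110 bases inside its gene, had 206 and 205 units in control and 167 and 182 in Taf4asKO. The highest TEC peak, of Gm38140 (203 bases upstream), had 240 and 258 units against 218 and 226. The peaks of 4833417C18Rik, 5430402P08Rik and Gm38140 were lower in both Taf4asKO libraries than in both control libraries, with log2 fold changes of -0.12, -0.24 and -0.16 and limma adjusted p of 0.666, 0.398 and 0.526.

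Of the 21 nuclear and chromatin lncRNAs looked for, 5 had a peak assigned to them (6 peaks, 4 tested). Exons of Neat1 and Trp53cor1, also on the list, held peaks that were assigned to the misc_RNA genes Gm27533 and Gm27599. These had at most 10 and 8 units and were not tested. Kcnq1ot1, the antisense RNA that silences imprinted neighbours of Kcnq1, had its main peak 82 bases upstream of its start (chr7:143296475-143296787), inside the coding gene Kcnq1. Its level was 154 and 157 units in the control libraries (155.5 ± 2.12, SD, n = 2) against 111 and 119 in Taf4asKO (115 ± 5.66, SD, n = 2), and a second peak 357 bases upstream had no value above 7 units. The Malat1 peak (chr19:5812098-5812452) lay 9603 bases upstream of that abundant nuclear RNA, at 146 and 163 units in control and 111 and 113 in Taf4asKO. For both the genotypes did not overlap, yet neither passed the test (log2 fold change -0.43 with adjusted p of 0.192, and -0.46 with 0.181, limma). Firre, an X-linked RNA of nuclear organisation, had 17 and 20 units in control and 9 and 18 in Taf4asKO at 97 bases upstream. H19, an imprinted RNA that is abundant in growing muscle, had at most 5 units 91 bases upstream of its start and was not tested. It was also the only entry found among the 9 muscle lncRNAs looked for. The peak given to 2900097C17Rik, the mouse Norad, lay 8676 bases upstream and had 32 and 20 units in control but 3 and 7 in Taf4asKO (log2 fold change -2.22, adjusted p = 0.0813), and its window has no CCAAT. None of the 4 tested peaks passed limma at an adjusted p of 0.05, and 3 had an unadjusted p under 0.05, where 0.948% and 17.9% of all 4746 tested peaks did. No peak was assigned to a Snhg gene or Gas5, the host genes of snoRNAs.

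Structural and catalytic RNA genes (snRNA, snoRNA, rRNA, misc_RNA, ribozyme, Terc and Rny1) had 95 peaks at 82 genes, of which 41 were tested. The Terc peak (chr3:96414778-96415013) was centred 37 bases upstream of the telomerase RNA gene, over the CCAAT box on its own strand printed above, and had 31 and 26 units in control and 29 and 25 in Taf4asKO. Snord104, a box C/D snoRNA, had one of the higher peaks at a start, 143 bases upstream (chr11:106500686-106501014), with 139 and 160 units in control and 108 and 117 in Taf4asKO. Here the genotypes did not overlap, whereas those of Terc overlapped, and neither passed the test (adjusted p of 0.237 and 0.907, limma). The 4 U3 snoRNA genes Rnu3b1, Rnu3b2, Rnu3b3 and Rnu3b4, near-identical copies within Tex14 on chromosome 11, had 5 weak peaks between 284 and 370 bases from their starts, with values from 3 to 26 units. Reads that fit several copies were removed as multi-mapping, so these levels are uncertain. A misc_RNA peak of Gm24363, 3601 bases upstream of its gene and 189617 bases from the nearest coding gene start, had 207 and 209 units in control and 138 and 120 in Taf4asKO (log2 fold change -0.69, adjusted p = 0.0788). The snRNA peaks were all weak, with control means of at most 28 units. None of the 41 tested peaks of this list passed limma at an adjusted p of 0.05, and 10 had an unadjusted p under 0.05, of which 6 belong to the rRNA block described next. Outside the block 4 of 34 did (11.8%, against 17.9% of all tested peaks).

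The highest noncoding-gene peak lies in a group of 9 peaks at chr17:39843033-39848779, here called the rRNA block. The table gives 7 of them to the rRNA gene CT010467.1 and 2 to the pseudogene ENSMUSG00000118642, and RefSeq places the 18S-related Rn18s-rs5 in the same block. The 7 are centred outside CT010467.1, from 61 to 3240 bases upstream of its start, in an exon of the gene model Gm26917. The other 2 are centred in exons of CT010467.1 and Gm42418. The highest peak (chr17:39843246-39844185) had 1298 and 2919 units in control and 806 and 1320 in Taf4asKO. None of the 9 windows holds CCAAT, with 68.5% G+C. All 9 moved together between libraries. Control replicate 2 exceeded replicate 1 by between 2.02-fold and 3.14-fold in them, whereas the median log2 ratio of these libraries was 0.00 over the other 440 tested members. The Taf4asKO replicates differed by 1.4-fold to 1.8-fold in the same direction.

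The block made up 15.6% and 29.7% of all units in noncoding-gene peaks in the control libraries and 10.3% and 16% in Taf4asKO. Without it, noncoding-gene peaks took 5.07% and 5.18% of all units in control and 5.97% and 5.39% in Taf4asKO. Between genotypes all 9 were lower in the mean of Taf4asKO (log2 fold changes from -0.99 to -0.79, SE 0.28 to 0.43). In 3 of 9 the genotypes did not overlap, against 47.9% of all tested peaks. None passed (limma adjusted p from 0.137 to 0.321), where 0.948% of all tested peaks did. An unadjusted p under 0.05 was found in 7 of 9, against 17.9% of all tested peaks. Control replicate 2 set the size of the difference: the median log2 fold change of the 9 was -0.89 with all libraries, -0.33 without control replicate 2 and -1.50 without control replicate 1. The study's methods state that multi-mapping and ribosomal reads were removed, so these are reads that passed that filter, and whether they belong at this locus was not tested.

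**Figure D4:**
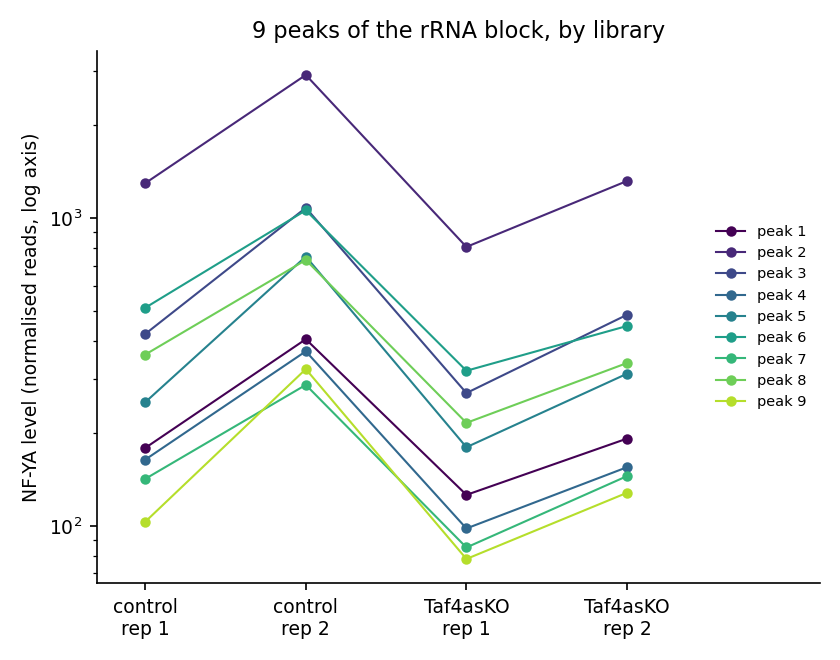
NF-YA level (normalised reads, log axis) of the 9 peaks of the rRNA block on chromosome 17 in each of the 4 libraries, numbered by position. Each line joins the values of 1 peak. Control replicate 2 is the highest library for all 9 peaks, by 2.02-fold to 3.14-fold over control replicate 1, and Taf4asKO replicate 1 is the lowest.

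Peaks given to miRNA genes numbered 70 at 68 genes, with 9 of them within 1000 bases of the hairpin, 53 with CCAAT and 36 tested. RefSeq mature sequences were matched by symbol for 40 of the 68 genes. The mature products of the members with known roles are printed 5′ to 3′ with the seed, bases 2 to 8, in capitals, since the seed decides which messenger RNAs a miRNA pairs with.
mmu-miR-206-3p (Mir206): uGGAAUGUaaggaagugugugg
mmu-miR-21a-5p (Mir21a): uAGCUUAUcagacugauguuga
mmu-miR-148a-3p (Mir148a): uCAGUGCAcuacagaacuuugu
mmu-miR-129-5p (Mir129-1 and Mir129-2): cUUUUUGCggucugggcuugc
mmu-miR-344-3p (Mir344 and Mir344-2): uGAUCUAGccaaagccugacugu

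Mir206, a miRNA specific to skeletal muscle, had a peak 845 bases upstream of its hairpin (chr1:20678039-20678290), with 36 and 29 units in the controls (32.5 ± 4.95, SD, n = 2) against 41 and 43 in Taf4asKO (42 ± 1.41, SD, n = 2). The difference did not pass (log2 fold change 0.37, SE 0.25, limma adjusted p = 0.449), and its CCAAT box is 3 bases from the window's centre. Mir148a, which is expressed in differentiating muscle, had 7 and 7 units in control and 6 and 10 in Taf4asKO 1091 bases upstream. Mir21a, a growth-related miRNA, had 20 and 13 against 19 and 20 units 9057 bases upstream, within the coding gene Vmp1. Genotypes overlapped for Mir148a and Mir21a.

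The genes that encode miR-129-5p, Mir129-1 and Mir129-2, share a seed and both had a peak. That of Mir129-1 was 9382 bases downstream, at 69 and 62 units in control and 32 and 41 in Taf4asKO (log2 fold change -0.83, adjusted p = 0.115), and that of Mir129-2 was 532 bases upstream at no more than 9 units. Mir344, Mir344-2 and Mir344c, 3 members of a hairpin cluster on chromosome 7 that share the seed GAUCUAG, had peaks 27, 98 and 81 bases upstream, each with 2 CCAAT boxes and each at no more than 13 units. They are similar copies, so their levels are uncertain for the same reason. Mirlet7a-2 had a peak 9235 bases downstream with 22 and 29 units in control and 50 and 53 in Taf4asKO (log2 fold change 1.00, adjusted p = 0.103). This peak passed limma with equal medians (adjusted p = 0.0389) but not with equal totals (0.0611). With the authors' scaling none of the 36 tested miRNA peaks passed limma at an adjusted p of 0.05, and 7 had an unadjusted p under 0.05 (19.4%, against 17.9% of all tested peaks).

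Between genotypes, 3 of the 449 tested noncoding-gene peaks (0.668%) passed the test (limma on log2 of the value plus 1, adjusted p under 0.05 over all 4746 tested peaks). Of all tested peaks 45 (0.948%) passed, 0.337% higher and 0.611% lower in Taf4asKO, so the share of members was near this background. All 3 belong to lncRNA genes, lie over 1000 bases from the assigned start and have CCAAT in the 200-base window. At an unadjusted p under 0.05 there were 96 of the 449 (21.4%, or 20.2% without the rRNA block), against 17.9% of all tested peaks.

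The AC125101.1 peak (chr19:44248178-44248805) lies 1922 bases upstream of this antisense gene and 10676 bases from the nearest transcript start of the stearoyl-CoA desaturase gene Scd3. It had 254 and 277 units in the controls (265.5 ± 16.3, SD, n = 2) against 144 and 131 in Taf4asKO (137.5 ± 9.19, SD, n = 2), so both Taf4asKO libraries were well below both controls. The log2 fold change was -0.94 (SE 0.15, adjusted p = 0.0214), and this was also the highest antisense peak in control cells.

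The Gm35733 peak (chr13:47355182-47355630), 5980 bases upstream of its lincRNA gene, rose from 36 and 46 units in control (41 ± 7.07, SD, n = 2) to 103 and 92 in Taf4asKO (97.5 ± 7.78, SD, n = 2). The log2 fold change was 1.24 (SE 0.21, adjusted p = 0.0343). The 1700067G17Rik peak (chr1:89019734-89020084), in an intron of its lincRNA gene, rose from 42 and 52 control units (47 ± 7.07, SD, n = 2) to 101 and 95 (98 ± 4.24, SD, n = 2), with a log2 fold change of 1.05 (SE 0.20, adjusted p = 0.0475). In both the libraries of the genotypes were far apart. Neither peak is near a coding gene start, the nearest transcript starts being those of Rnf144b at 161581 bases and Sh3bp4 at 50506 bases.

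These calls depend on the settings of the test. None passed without the variance trend (103 members at an unadjusted p under 0.05) or without the minimum (121), while the 3 passed under each scaling tried, where the number of calls changed. With the library medians made equal 21 members passed, 12 higher and 9 lower, and with equal totals 6 passed, 5 higher and 1 lower, against 2 higher and 1 lower with the authors' scaling. With the replicate number as a block 7 passed, all lower, and only AC125101.1 was shared (limma adjusted p = 0.0309). The share of all tested peaks that passed is given only for the main setting. The counts under other settings therefore cannot be read as particular to the members. Without any 1 of the 4 libraries none passed (21 to 133 members at an unadjusted p under 0.05), but this sets 1 library against 2 and takes the spread of the lone library from the other genotype, so it says little of stability. The log2 fold changes were then -1.01 to -0.88 for AC125101.1, 1.07 to 1.41 for Gm35733 and 0.90 to 1.20 for 1700067G17Rik.

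Libraries of the genotypes were separate (every value of one above every value of the other) in 232 of the 449 tested members, 115 higher and 117 lower in Taf4asKO. Over all tested peaks 47.9% were separate, 19.3% higher and 28.6% lower. The log2 fold change was beyond 1 in size in 39 members, 24 higher and 15 lower, against 7.37% of all tested peaks, 4.7% higher and 2.68% lower.

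Among separate members the largest decreases were at weak to moderate peaks. That of 5031425F14Rik had 13 and 59 units in control and 0 and 6 in Taf4asKO (log2 fold change -3.45, adjusted p = 0.115). The value was -4.50 without control replicate 1, -2.05 without Taf4asKO replicate 1 and -4.86 without Taf4asKO replicate 2, and without control replicate 2 the peak was under the minimum. It passed with equal medians and with the replicate block. The filter let this peak in through its control values, so these passes are not taken as support. A peak 794 bases downstream of the pseudogene Gm5711 had 17 and 20 against 6 and 2 units (-2.08, adjusted p = 0.114). The Gm49540 peak (chr15:77018071-77018230) lies inside Mb, the myoglobin gene of oxidative muscle, 3813 bases from one of its transcript starts, and had 26 and 23 units in control and 6 and 5 in Taf4asKO (-1.97, adjusted p = 0.0677). AC134458.4 on chromosome 18 had 41 and 26 against 9 and 7 units (-1.91, adjusted p = 0.053), and Norad, given above, completes the 5. With equal medians Gm49540, AC134458.4 and Norad also passed, but the filter let them in through their control values, so this is not taken as support.

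The largest increases started from a control level of a few reads. All 5 had a control mean under 10 units and passed the filter on the mean of 4 libraries through the Taf4asKO values, as the 5 decreases, all with a Taf4asKO mean under 10, passed through the control values, so their place in this ranking is in part set by the filter and they are given as values only. The 5S rRNA gene n-R5s43 had 7 and 0 units in control, which is 7 and 0 reads, and 17 and 20 in Taf4asKO. The miRNA gene Gm23968 had 3 and 3 units, which is 3 reads and 1 read, against 21 and 16. Gm33570 had 11 and 3 units (11 reads and 1 read) against 27 and 20, 2900045O20Rik had 5 and 7 (5 and 2 reads) against 29 and 20, and AC124383.1 on chromosome 18 had 5 and 10 (5 and 3 reads) against 33 and 28. Their log2 fold changes were between 1.81 and 2.78 on the log2 scale of the value plus 1, and none passed (limma adjusted p from 0.0677 to 0.158). Gm23968, 2900045O20Rik and AC124383.1 passed with equal medians, but the filter let them in through their Taf4asKO values, so this is not taken as support. With so few control reads the size of these increases is poorly determined.

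The genotype difference varied with the strength of the peak. Of the 41 members with a mean of at least 100 units, 34 were lower in Taf4asKO (median log2 fold change -0.34), and without the rRNA block 25 of 32 were (median -0.28). Among members from 10 to 20 units 104 of 189 were higher (median 0.13). Protein-coding-gene peaks did likewise, with 741 of 868 lower at 100 or more (median -0.22) and 391 of 649 higher from 10 to 20 (median 0.17). The peaks were merged over the 4 libraries, so a weak peak can be listed through the genotype where it is high. Over all peaks 145 and 587 control values were 0, against 8 and 24 in Taf4asKO. How far the choice of peaks sets the direction among weak peaks was not tested. Other scalings shift all peaks by a nearly constant amount, raising the median over all tested peaks from -0.04 to 0.03 with equal library medians and 0.10 with equal totals. The strong members without the block then had medians of -0.20 (24 of 32 lower) and -0.13 (21 of 32 lower). Protein-coding-gene peaks of 100 or more had -0.14 (679 of 868 lower) and -0.07 (585 of 868 lower). Without control replicate 2, which had fewer reads in peaks than replicate 1, the medians were -0.20 for the strong members outside the block (29 of 32 lower) and 0.12 for the weak ones (96 of 172 higher). Over all 449 tested members the median was 0.02, with 230 higher and 218 lower.

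**Figure D5:**
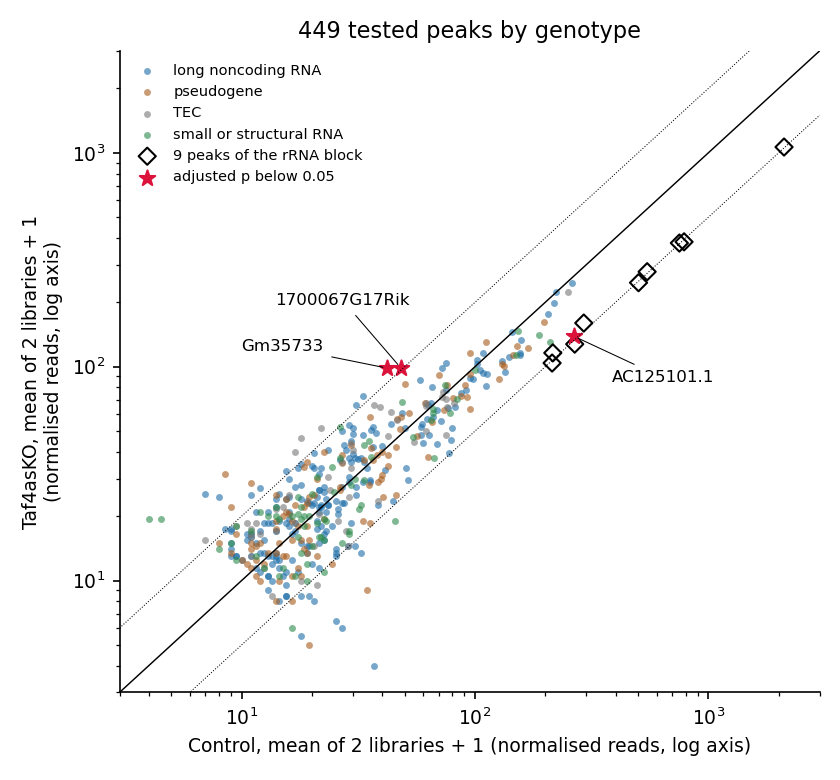
Mean NF-YA level plus 1 (normalised reads, log axes) in the 2 control and the 2 Taf4asKO libraries for the 449 tested noncoding-gene peaks, coloured by family, with the line of equality and dotted lines at a 2-fold difference. Stars mark the 3 peaks with an adjusted p below 0.05, and diamonds the 9 peaks of the rRNA block, which lie along the lower dotted line.

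Several lncRNA genes had clusters of peaks. Gm10384 had 4 on chromosome 15, all with means below 10 units. 1700025L06Rik had 4 on chromosome 7, between 22934 and 34860 bases from the start of Myod1, the coding gene nearest to them and a master regulator of the muscle lineage. The highest, chr7:46341430-46341798, had 31 and 68 units in control and 32 and 33 in Taf4asKO, and 3 of the 4 windows have no CCAAT. Genotypes overlapped in that peak and in chr7:46350296-46350579, at 7 and 36 against 21 and 10 units, and the other 2 were not tested. In the antisense gene 2900057B20Rik, within Zbtb7c, the middle of 3 peaks had 64 and 52 units in control and 43 and 51 in Taf4asKO. Gm14488 had 3 peaks, with 63 and 62 units in control and 45 and 49 in Taf4asKO at the highest, and 2310020H05Rik had 3 of at most 28 units.

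Pseudogene peaks covered a wide range of levels. AC127556.2, within the coding gene Cdc42bpg and 584 bases from one of its transcript starts, had 174 and 163 units in control and 117 and 125 in Taf4asKO, and the Gm18001 peak noted above had 174 and 219 against 147 and 176. The peak of the transcribed pseudogene Zfp939, 112 bases upstream of its start, had 117 and 147 units in control and 92 and 108 in Taf4asKO. All 3 were lower in Taf4asKO by small amounts, and the genotypes overlapped in Gm18001 alone. At Gm12586 and at the polymorphic pseudogene Gbp11 the 4 libraries were within 2 units of each other, at 39 in every library for the former and from 36 to 38 for the latter. In all, 108 pseudogene peaks were tested, with a median log2 fold change of 0.00, and none passed limma at an adjusted p of 0.05 (19 at an unadjusted p under 0.05, or 17.6% against 17.9% of all tested peaks).

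The highest peaks of the remaining biotypes were moderate. Among snoRNA genes Gm23596 followed Snord104, with 71 and 59 units in control and 60 and 65 in Taf4asKO at a site 4127 bases downstream. The snRNA peaks of Gm23444 and Gm24655 had 20 and 36 against 17 and 14 units and 20 and 20 against 15 and 20. Of these 3 peaks that of Gm23444 alone was separate between genotypes, and none passed (limma adjusted p from 0.299 to 0.916). The second miRNA peak by level, of Gm22346, had 108 and 91 units in control and 107 and 84 in Taf4asKO, and the second TEC peak, in an exon of Gm44207 within Plxna1, had 78 and 82 against 72 and 61. The Pdxk-ps peak, 1624 bases upstream of that transcribed pseudogene, had 84 and 88 units in control and 69 and 75 in Taf4asKO. Gm24690, the rRNA gene with the highest peak outside the block, on chromosome 18, had 165 and 140 against 140 and 152 units with 2 CCAAT boxes in its window. The genotypes were separate at Gm44207 and Pdxk-ps and overlapped at Gm22346 and Gm24690. The single ribozyme peak, of Gm24687 on chromosome X, had no value above 9 units.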

How the data were processed

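The deposited table gives NF-YA CUT&RUN peaks merged over the 4 libraries. Per the labels and the study's methods, reads were trimmed (Trimmomatic 0.39), aligned to mm10 (STAR 2.7.11a), deduplicated (Picard 3.1.1; versions as the submitters' processing notes give them, the study's own texts naming others in places), cleared of multi-mapping and ribosomal reads, called as peaks with MACS, counted with featureCounts and normalised with DESeq2 by the authors, who assigned genes from Ensembl. The values are a score: DESeq2-normalised reads the authors rounded to whole numbers, so no count model was fitted. Members, gene lists and comparisons were chosen with earlier results of these data known. Gene names and coordinates came from GENCODE M21 (772 of 775 gene IDs matched, 770 with the same coordinates), sequences from RefSeq. Log2 of the value plus 1 was tested with limma 3.58.1 (R 4.3.3, empirical Bayes with a trend, Benjamini-Hochberg over the 4746 peaks whose mean was 10 or more). On simulated data at this size 152 of 200 changed peaks were called, with a log2 change of 2, and 0 others. The simulation used a fixed replicate spread and an assumed read value for the Taf4asKO libraries. The members called here changed less than the simulated peaks, so it does not show how often such changes would be found. Reads in peaks were recovered for the control libraries from steps between values (at least 99.9% on the step). Intervals are 95% Wilson. Named peaks were the 5 highest lncRNA and 2 highest peaks of each other biotype, all calls, the 5 largest separate changes each way, listed genes and lncRNA genes with most peaks, the few others being examples chosen after seeing values. Alternatives were scaling, filter, pseudocount, trend, block, leaving out libraries and, added later, leaving out the rRNA block and using transcript starts.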

Additional observations from a re-analysis of the deposited data

How the results depend on the processing

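The number of noncoding-gene peaks passing between genotypes, 3 as reported, was 21 with equal medians, 6 with equal totals, 6 with a pseudocount of 5, 15 at a threshold of 0.1, 7 with the replicate block, and 0 (limma) without the minimum (121 at an unadjusted p under 0.05) and without a variance trend (103). Leaving out each library in turn gave 0 to 0 calls in a test of 1 library against 2, with the fold changes of the 3 peaks in the same direction each time. It stayed 3 without the rRNA block. For these alternative settings the share of all tested peaks that passed is not given, so the counts have no background beside them. All 3 peaks were among the calls with equal medians, equal totals and a pseudocount of 5, and 1 of them with the block. The replicate numbers carry no stated pairing. Deviations of same-numbered libraries correlated at -0.09 over all tested peaks and 0.04 over tested noncoding-gene peaks, and with 2 pairs this cannot be judged further. The median log2 fold change, 0.02, was 0.09 with equal medians, 0.16 with equal totals and 0.18 without the minimum, and from 0.00 to 0.05 when a library was left out. The cause of these shifts was not tested beyond the fact that the scalings move all peaks. The share with CCAAT was 66.7% over the whole peak and 78.8% at a mean of at least 10. The share at the start was 9.56% within 200 bases, 25.8% at a mean of at least 10 and 29.3% for lncRNA genes. The share near a coding start, 0%, was 6.03% with transcript starts. Of 155 recomputed fold changes of 18 named peaks, none reversed, 125 kept their side of the threshold, 13 gained and 17 lost the call. Control replicate 2 had a median of 4.91 reads per peak, which limits what can be said of weak peaks.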
